A study of Drosophila melanogaster with 3 samples.

Results

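The Enhancer of split (E(spl)) bHLH genes are the 7 genes on chromosome arm 3R whose symbols start with E(spl) and end with -HLH, out of 13945 protein-coding genes on the arms used. They are E(spl)mdelta-HLH (FBgn0002734), E(spl)mgamma-HLH (FBgn0002735), E(spl)mbeta-HLH (FBgn0002733), E(spl)m3-HLH (FBgn0002609), E(spl)m5-HLH (FBgn0002631), E(spl)m7-HLH (FBgn0002633) and E(spl)m8-HLH (FBgn0000591). Binding of Scalloped was looked for in each gene body with 2000 bp on either side, and each summit (the point of highest signal in a peak) was given to the protein-coding gene with the nearest transcription start site (TSS). The data were chromatin immunoprecipitation with sequencing from whole Drosophila melanogaster embryos of both sexes, 4 to 20 h old, from a transgenic line with green fluorescent protein (GFP) fused to the C terminus of Scalloped. An anti-GFP antibody was used on sonicated chromatin with fragments of 200 to 800 bp. There were 3 biological replicates of this single group, so no condition was compared with another. All cell types of the embryo were mixed, and what drives the tagged gene was not given in the sources used here.

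The E(spl) bHLH proteins are transcriptional repressors. When the receptor Notch is activated, its intracellular part joins the DNA-binding protein Su(H) and switches the complex on, and the bHLH proteins then repress proneural genes with the co-repressor Groucho, whose gene gro lies at the end of the complex. This is the core of lateral inhibition, by which a cell that becomes a neural precursor keeps its neighbours from doing so. Su(H) sites in the complex often occur as convergent pairs, an arrangement known for Notch-responsive enhancers. Scalloped is the fly TEA-domain factor and partners Yorkie of the Hippo pathway and Vestigial.

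Of the 7 genes, 5 had a summit of the irreproducible discovery rate (IDR) list in their window, and 4 of these were the gene with the nearest TSS. The share of all protein-coding genes with an IDR summit in the same kind of window was 44.0%, and 28.2% were also the nearest gene. The bHLH genes are short, from 769 to 1305 bp. Among the 4331 protein-coding genes of 500 to 1500 bp, 30.4% had an IDR summit in the window and 13.9% were also the nearest gene. Summits within 1000 bp of a TSS were found for 3 of the 7, against 30.5% of all genes. The IDR list held 10553 peaks and was made up of the strongest peaks of the pooled list. The pooled list and each replicate list held 30000 peaks. The caller's signal value has a scale of its own in each list, so it is given here as a ratio to the median of its list, and ranks start at 1 for the strongest peak. Sequencing depth is unknown, and no counting interval could be given.

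The windows together held 8 IDR summits. Of these, 6 were nearest to a bHLH gene, namely 1 for E(spl)mgamma-HLH, 2 each for E(spl)mbeta-HLH and E(spl)m3-HLH, and 1 for E(spl)m7-HLH. The 2 IDR summits in the window of E(spl)m8-HLH were nearer to a TSS of gro. E(spl)mdelta-HLH and E(spl)m5-HLH had none. All 8 had a summit within 100 bp in each of the 3 replicates, as 91.4% of all IDR summits did. Matched within 50 bp, 6 of the 8 did, and 6 did with only the top 10553 peaks of each replicate list. The share of all IDR summits was not taken at these settings. None lay inside a bHLH gene, and neither did any of the 22 pooled-list summits of the windows. The gene body alone held an IDR summit for 19.8% of all protein-coding genes and for 3.39% of those of 500 to 1500 bp, and a pooled-list summit for 27.9% of all. Each of the 7 genes has 1 exon and 1 transcript in the annotation, so they offer no intron for a summit.

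The sequences around the summits are shown for 3 of the stronger summits of the bHLH genes, since they hold words that Su(H) is known to bind. Each line is 201 bases centred on an IDR summit, on the plus strand of dm6, read from the RefSeq copy of that assembly, with the words GTGGGAA and GTGAGAA and their reverse complements in capitals. The window of E(spl)m7-HLH has no such word and is given for contrast, though a convergent pair of words lies outside it, 275 bp from the summit. The highest-ranked of the IDR summits in the gene windows, at gro (rank 2505), has no such word within its 201 bases either.
E(spl)mgamma-HLH, 3' side, chr3R:26002570-26002770: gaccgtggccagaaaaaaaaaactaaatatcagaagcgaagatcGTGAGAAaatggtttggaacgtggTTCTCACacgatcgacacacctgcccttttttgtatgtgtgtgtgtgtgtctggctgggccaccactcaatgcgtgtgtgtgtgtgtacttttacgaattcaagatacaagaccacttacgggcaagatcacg
E(spl)mbeta-HLH, 3' side, chr3R:26004722-26004922: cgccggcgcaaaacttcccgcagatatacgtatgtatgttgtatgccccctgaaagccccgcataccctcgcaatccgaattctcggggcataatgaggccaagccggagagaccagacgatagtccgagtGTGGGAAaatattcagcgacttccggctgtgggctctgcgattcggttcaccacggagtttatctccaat
E(spl)mbeta-HLH, promoter side, chr3R:26006301-26006501: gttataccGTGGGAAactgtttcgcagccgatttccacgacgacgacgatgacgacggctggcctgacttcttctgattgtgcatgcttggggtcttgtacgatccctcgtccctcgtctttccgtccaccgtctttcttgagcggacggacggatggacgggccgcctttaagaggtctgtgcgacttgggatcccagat
E(spl)m7-HLH, promoter side, chr3R:26036560-26036760: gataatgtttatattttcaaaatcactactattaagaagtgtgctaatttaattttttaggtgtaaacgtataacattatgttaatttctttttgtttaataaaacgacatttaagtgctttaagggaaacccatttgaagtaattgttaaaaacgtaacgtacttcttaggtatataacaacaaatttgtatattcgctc

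**Figure D1:**
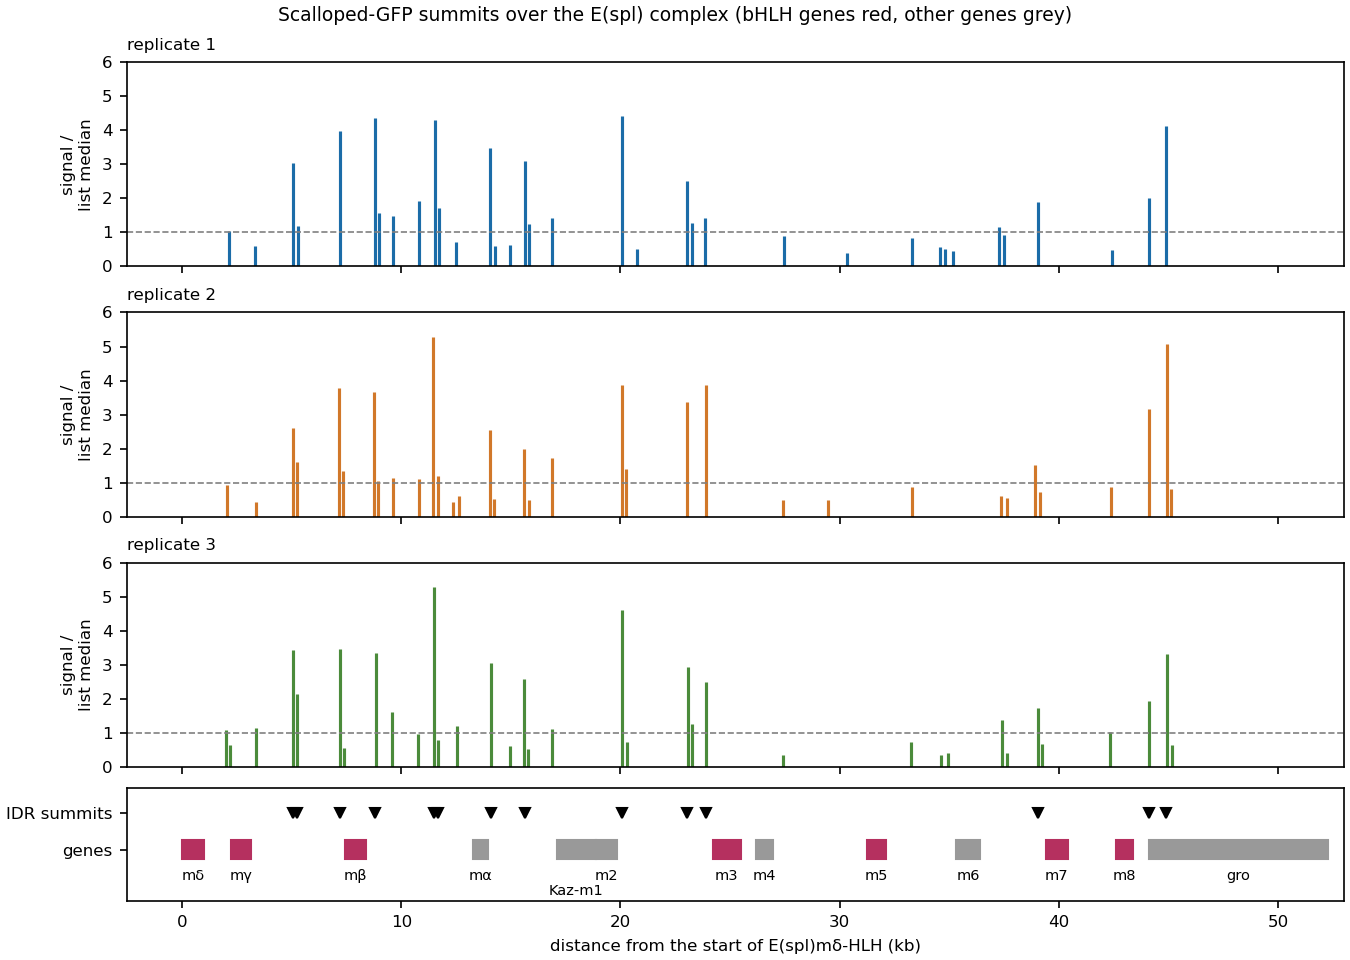
Summits of each replicate list (vertical lines, height is signal value over the list median, dashed line at 1) along the E(spl) complex, with the IDR summits as triangles and the genes below; the x axis is the distance in kb from the start of E(spl)mdelta-HLH. In all 3 replicates the tall lines stand at E(spl)mgamma-HLH to E(spl)m3-HLH and again at gro, and no IDR summit lies between the one just upstream of E(spl)m3-HLH and the one just upstream of E(spl)m7-HLH.

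Along the chromosome, the IDR summits were spread unevenly over the bHLH genes. The complex from E(spl)mdelta-HLH to the end of gro (3R, 25997621 to 26049911, 52.3 kb) held 14 IDR summits, or 26.8 per 100 kb, against 7.88 per 100 kb over all arms. Of the 14, 8 lay in the windows of the bHLH genes. The figure for all arms covers their full length, and other gene-dense stretches were not measured. No IDR summit lay between 26021519, just upstream of E(spl)m3-HLH, and 26036660, just upstream of E(spl)m7-HLH. This gap of 15.1 kb holds 4 genes, E(spl)m3-HLH itself, E(spl)m5-HLH and the Bearded-family genes E(spl)m4-BFM and E(spl)m6-BFM. The map of the complex by replicate shows low replicate-list summits in this gap. Apart from summits within 100 bp of its ends, the highest was at 26036524 in replicate 2, with a ratio of 1.53.

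E(spl)mbeta-HLH, which is known for its part in wing veins, had the highest mean ratio of the 7 genes. Its gene lies at 26005046 to 26006023 on the minus strand. A summit at 26006401, in intergenic sequence 378 bp upstream of the TSS, ranked 2791 of the IDR list, with ratios of 4.36, 3.65 and 3.34 in replicates 1, 2 and 3 (mean 3.78 ± 0.520, SD, n = 3). Another, at 26004822, lay 1201 bp downstream of the TSS, beyond the 3' end of the gene, and ranked 2897. Its ratios were 3.99, 3.79 and 3.46 (mean 3.75 ± 0.270, SD, n = 3). The gene was thus flanked by summits whose ranges over replicates overlapped. The 3' summit was nearer to the start of a noncoding gene, lncRNA:CR45038, 544 bp away. Further pooled-list summits at 26007231, 26006603 and 26005022 were lower, with ranks of 10662, 16489 and 24736.

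E(spl)mgamma-HLH, known for its expression in neural stem cells, had its strong summit far from its start. The gene lies at 25999851 to 26000761 on the plus strand. The summit at 26002670 lay 2819 bp downstream of the TSS in intergenic sequence and ranked 3791, with ratios of 3.05, 2.61 and 3.43 in replicates 1, 2 and 3 (mean 3.03 ± 0.409, SD, n = 3). It was within the window by a small distance, since the window ends at 26002761. A weaker IDR summit at 26002876 (rank 7896) lay just outside and was also nearest to E(spl)mgamma-HLH among protein-coding genes. A noncoding gene, lncRNA:CR45037, starts 1469 bp from the summit at 26002670, closer than the bHLH gene. The promoter itself had only a pooled-list summit at 25999698, 153 bp upstream of the TSS, at rank 14954. Its ratios of 1.03, 0.932 and 1.09 were close to the median of each list.

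E(spl)m3-HLH, at 26021823 to 26023127 on the plus strand, had IDR summits on its upstream side. The distal summit at 26020679, 1144 bp upstream of the TSS, lay in an exon of lncRNA:CR43644 and ranked 4205. Its ratios were 2.51, 3.36 and 2.93 in replicates 1, 2 and 3 (mean 2.93 ± 0.426, SD, n = 3). The proximal summit at 26021519, 304 bp upstream, was intergenic and ranked 5057. Its ratios were 1.43, 3.87 and 2.51 (mean 2.60 ± 1.22, SD, n = 3), and its ranks in the replicate lists were 10572, 2830 and 5333. The proximal summit was therefore the higher of the 2 in replicate 2 and the lower in replicates 1 and 3.

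E(spl)m7-HLH, at 26037038 to 26038019 on the plus strand, had the weakest of the IDR summits in these windows, at 26036660, 378 bp upstream of the TSS in intergenic sequence. It ranked 8334 in the IDR list. The strongest summit nearest to this gene had ratios of 1.90, 1.53 and 1.73 in replicates 1, 2 and 3. In replicate 2 the signal was divided, with that summit at 26036524 and a lower one at 26036746 (ratio 0.719), and only the lower one was within 100 bp of the IDR summit. With the nearest replicate summit used in place of the strongest, a choice made after seeing the data, the mean for E(spl)m7-HLH was 1.45 in place of 1.72.

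E(spl)m8-HLH, the gene altered by the mutation that gave the complex its name, had IDR summits in its window that lay at gro. The gene lies at 26040240 to 26041008 on the plus strand, and gro starts at 26041736. The summit at 26041745, 9 bp downstream of the gro TSS in its 5' UTR, ranked 5820, with ratios of 2.00, 3.18 and 1.95 in replicates 1, 2 and 3. The summit at 26042519, in an intron of gro and 122 bp upstream of another gro TSS, ranked 2505, with ratios of 4.13, 5.06 and 3.33. In both, replicate 2 was the highest. The promoter of E(spl)m8-HLH itself had a pooled-list summit at 26039971, 269 bp upstream of its TSS, at rank 17356. This summit had a −log10 q of 2.54, below the ceiling of 4.38 shared by all IDR peaks. Its ratios were 0.472, 0.864 and 1.04 (mean 0.793 ± 0.292, SD, n = 3).

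E(spl)m5-HLH and E(spl)mdelta-HLH had no IDR summit in their windows. E(spl)m5-HLH lies at 26028854 to 26029735 on the minus strand, and its strongest pooled-list summit, at 26030911, was 1176 bp upstream of the TSS and ranked 17471 with a −log10 q of 2.52. The ratios were 0.849, 0.865 and 0.742 (mean 0.819 ± 0.0665, SD, n = 3), below the median in every replicate. E(spl)mdelta-HLH, known for its expression in the R4 photoreceptor precursor of the eye, lies at 25997621 to 25998633 on the plus strand. No summit of the IDR, pooled or replicate lists in its window had it as the nearest gene. The only pooled-list summit there was the promoter summit of E(spl)mgamma-HLH described above. A gene without a summit here may still have signal below the lowest of the 30000 peaks of a list.

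**Figure D2:**
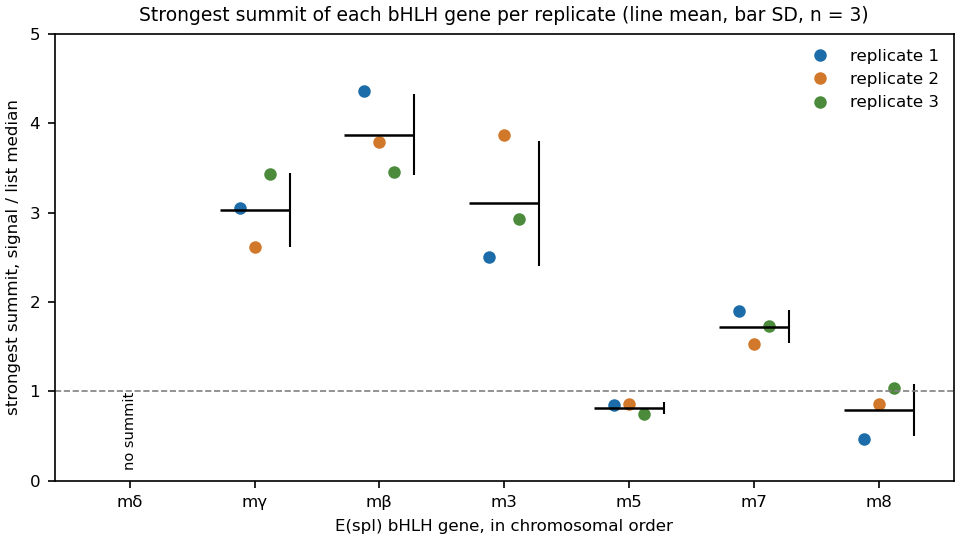
Signal value over the list median of the strongest summit nearest to each bHLH gene, per replicate (points), with the mean (horizontal line) and SD (vertical bar, n = 3); the dashed line is the list median. E(spl)mbeta-HLH, E(spl)m3-HLH and E(spl)mgamma-HLH lie between 2.51 and 4.36, E(spl)m7-HLH between 1.53 and 1.90, E(spl)m5-HLH and E(spl)m8-HLH between 0.472 and 1.04, and E(spl)mdelta-HLH has no summit.

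Ordered by the strongest summit of each gene in each replicate list, the mean ratio was 3.87 ± 0.454 for E(spl)mbeta-HLH, 3.10 ± 0.697 for E(spl)m3-HLH, 3.03 ± 0.409 for E(spl)mgamma-HLH, 1.72 ± 0.185 for E(spl)m7-HLH, 0.819 ± 0.0665 for E(spl)m5-HLH and 0.793 ± 0.292 for E(spl)m8-HLH (SD, n = 3). E(spl)mbeta-HLH and E(spl)m3-HLH had overlapping ranges, as had E(spl)m3-HLH and E(spl)mgamma-HLH, and E(spl)m5-HLH and E(spl)m8-HLH. These neighbours in the order did not differ beyond their spread, and E(spl)m3-HLH was above E(spl)mbeta-HLH in replicate 2 (3.87 against 3.79). For E(spl)mbeta-HLH and E(spl)m3-HLH, as for E(spl)m7-HLH, the strongest summit was not the same site in every replicate. With the replicate summit nearest to the strongest pooled-list summit, an unplanned choice, the mean was 3.78 for E(spl)mbeta-HLH and 2.93 for E(spl)m3-HLH. E(spl)mgamma-HLH stayed at 3.03, so E(spl)m3-HLH then came below it. The ranges of E(spl)mgamma-HLH and E(spl)m7-HLH did not overlap, and neither did those of E(spl)m7-HLH and E(spl)m5-HLH. E(spl)mbeta-HLH was above E(spl)mgamma-HLH in each replicate, but by little in replicate 3, with 3.46 against 3.43. Each value comes from the same 3 samples, so the order describes these samples and carries no test. A pooled-list summit nearest to the gene was found for 6 of the 7 genes, against 40.1% of all genes, and any pooled-list summit in the window for 7 of 7, against 54.5%. The same count by nearest gene was 6 of 7 in each replicate list, against 39.8%, 45.5% and 40.6% of all genes in replicates 1, 2 and 3.

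**Figure D3:**
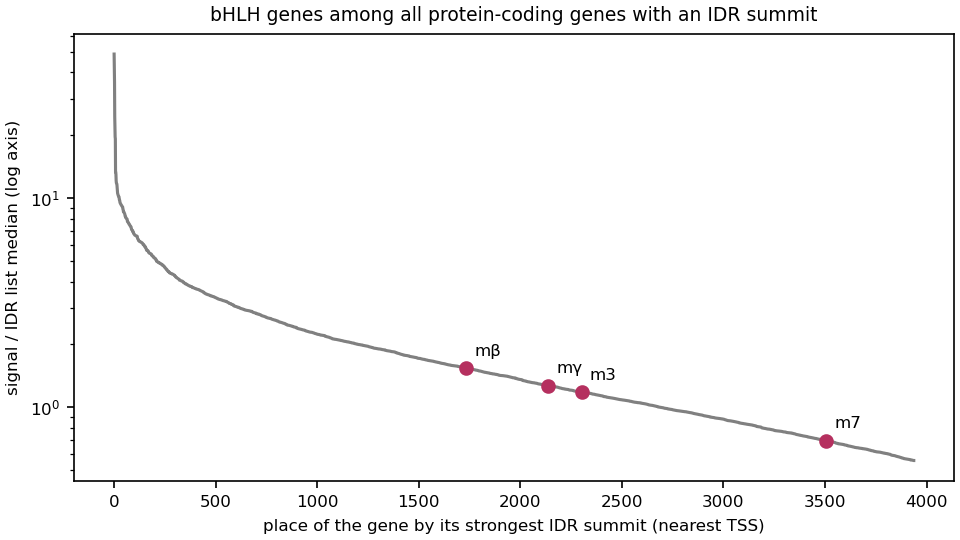
Signal value over the IDR list median (log axis) of each protein-coding gene's strongest IDR summit by nearest TSS, with genes ordered from strongest to weakest (x axis, grey line) and the bHLH genes as points. The 4 bHLH genes with such a summit stand at places 1734, 2136, 2302 and 3507 of 3937, none of them near the steep left end.

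Among the 3937 protein-coding genes with an IDR summit of their own, E(spl)mbeta-HLH took place 1734, E(spl)mgamma-HLH 2136, E(spl)m3-HLH 2302 and E(spl)m7-HLH 3507, where the middle gene's strongest summit ranked 3330. The ratio to the IDR list median was 1.54 for E(spl)mbeta-HLH and 0.692 for E(spl)m7-HLH. By window alone, the highest rank was that of E(spl)m8-HLH through the gro summit, which by this measure placed it with gro itself. The genes next to it by rank of the strongest summit in the window were alt (2496) and Top1 (2497) above, and AdamTS-B and CG3149 (both 2507) below. This likeness is only of rank in 1 list.

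The core site of TEA-domain factors, CATTCC, was absent from all 8 IDR summits of the windows, searched on both strands within 100 bp. Over all IDR summits, 19.8% had it. An extended form of the site was at none of the 8, against 9.24% of all, and AATTCC was also at none, against 23.5%. A narrower and a wider window also gave a count of 0 for CATTCC. The E-box CANNTG, the general site of bHLH activators, was at 3 of the 8, against 63.2% of all IDR summits. The N-box CACNAG, which Hairy and E(spl) repressors are known to bind, was at 1, against 20.9%. In the promoters, taken as 500 bp before to 50 bp after the TSS, CATTCC was found for 1 of the 7 genes, E(spl)m8-HLH, 416 bp upstream, against 24.4% of all protein-coding genes. The absence of a word says only that these letters are not in the window.

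Words of the Su(H) type were present at 4 of the 8, or at 4 of the 6 nearest to a bHLH gene, against 5.08% of all IDR summits. Positions are given here for 3 of these 4. The words searched were GTGGGAA and GTGAGAA on both strands. GTGGGAA lay at both summits of E(spl)mbeta-HLH, 34 and 89 bp from the summit at 26004822 and 26006401. At the summit 3' of E(spl)mgamma-HLH, GTGAGAA lay on the plus strand 53 bp and on the minus strand 29 bp from the summit. In the same promoter stretch such words were found for 4 of the 7 genes (E(spl)mgamma-HLH, E(spl)mbeta-HLH, E(spl)m5-HLH and E(spl)m8-HLH), against 14.5% of all protein-coding genes. Over their whole windows, E(spl)mdelta-HLH and E(spl)m5-HLH, which had no IDR summit, held 7 and 6 such words. E(spl)mgamma-HLH and E(spl)m7-HLH held 6 each, E(spl)m8-HLH 4 and E(spl)mbeta-HLH 3, and some of these windows overlap. The words were thus also common in these windows away from IDR summits. No share was taken for stretches of the complex without a summit, so the 4 of 8 has no local background.

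The words at the E(spl)mgamma-HLH summit form a convergent pair with 17 bases between them. Such pairs, with 16 or 17 bases between the words, were searched on all arms. This search was added after the summit windows had been seen, so the pair at the E(spl)mgamma-HLH summit was known beforehand. Of the pairs in the E(spl) complex, 5 are reported and printed here, with no choice by their distance from a summit. Each is on the plus strand of dm6, with the words in capitals.
E(spl)mgamma-HLH promoter, chr3R:25999558-25999588: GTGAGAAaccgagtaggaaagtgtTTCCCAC
E(spl)mgamma-HLH 3' side, chr3R:26002614-26002644: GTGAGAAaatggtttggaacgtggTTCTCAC
E(spl)m4-BFM promoter, chr3R:26024859-26024889: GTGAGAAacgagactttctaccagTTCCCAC
E(spl)m7-HLH upstream, chr3R:26036370-26036400: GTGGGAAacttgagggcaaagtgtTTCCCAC
E(spl)m8-HLH promoter, chr3R:26040017-26040047: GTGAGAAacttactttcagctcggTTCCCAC

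Of these pairs, 4 had a bHLH gene as the nearest protein-coding gene and 1 had E(spl)m4-BFM, a Bearded-family gene that is also a Notch target. An IDR summit lay within 300 bp of 2 of the 5. The distances from the middle of the pair were 41 bp for the pair 3' of E(spl)mgamma-HLH and 275 bp for that upstream of E(spl)m7-HLH. The remaining pairs, at the promoters of E(spl)mgamma-HLH, E(spl)m8-HLH and E(spl)m4-BFM, lay 125, 61 and 170 bp from pooled-list summits of low rank (14954, 17356 and 21513). Of the 4 pairs outside the complex, none was within 300 bp of an IDR summit and 3 were within 300 bp of a pooled-list summit; their nearest protein-coding genes were Wdr62, CG11191, Idgf6 and abd-A. For scale, 4.4% of all positions on the arms lay within 300 bp of an IDR summit and 11.4% within 300 bp of a pooled-list summit. Inside the complex summits were denser, with 26.8 IDR summits per 100 kb against 7.88 over all arms. No such share was taken for the complex alone, so the counts for its pairs have no local background. E(spl)mbeta-HLH, which had the highest mean ratio, had no such pair in its window. The window 3' of E(spl)mgamma-HLH was the only IDR window of 201 bases that held a whole pair.

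**Figure D4:**
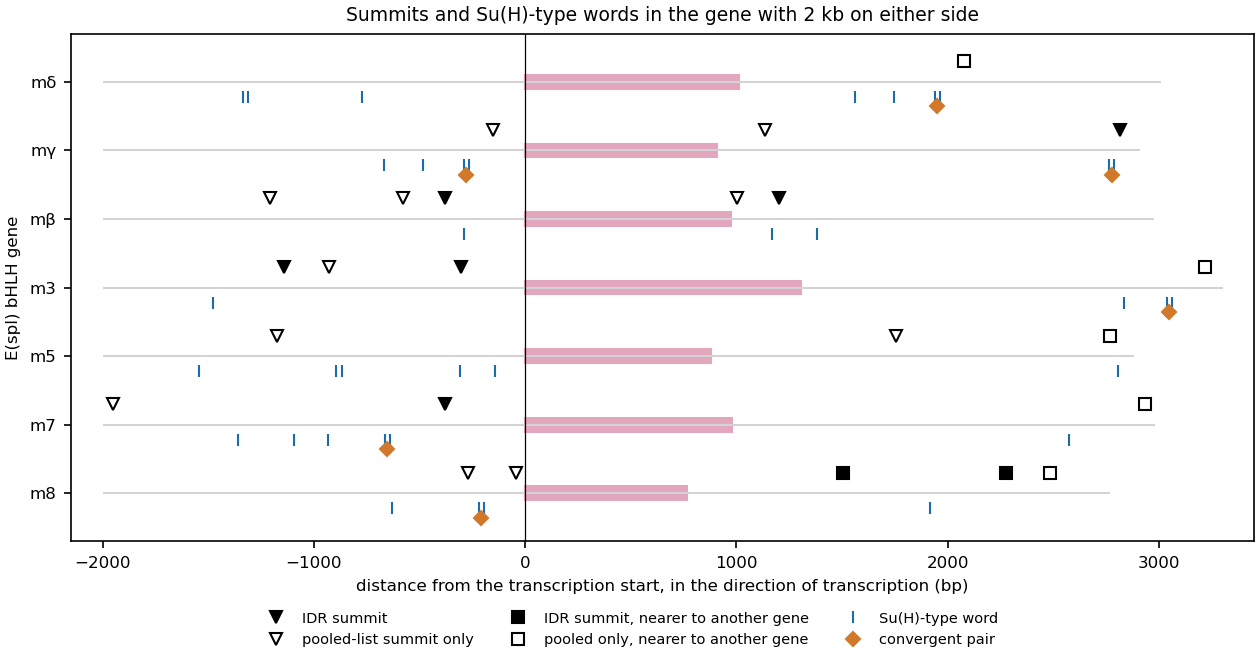
Summits and Su(H)-type words in each bHLH gene with 2000 bp on either side, as distance in bp from the TSS in the direction of transcription; filled triangles are IDR summits, open triangles summits of the pooled list only, squares summits nearer to another gene, and ticks and diamonds the words and convergent pairs reported here. No summit lies inside a gene body. IDR summits stand 378 bp upstream of the TSS at both E(spl)mbeta-HLH and E(spl)m7-HLH and 304 bp upstream at E(spl)m3-HLH. Every gene row except E(spl)mbeta-HLH and E(spl)m5-HLH has a pair. The pairs shown in the E(spl)mdelta-HLH and E(spl)m3-HLH rows are those at the promoters of E(spl)mgamma-HLH and E(spl)m4-BFM, which lie in these windows.

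The promoter-side IDR summits were 378 bp upstream of the TSS for both E(spl)mbeta-HLH and E(spl)m7-HLH and 304 bp upstream for E(spl)m3-HLH. Positions varied by replicate. In replicates 1, 2 and 3 the E(spl)mbeta-HLH summit was 381, 336 and 441 bp upstream. The strongest E(spl)m7-HLH summit was 385, 514 and 385 bp upstream, and the E(spl)m3-HLH summit 324, 311 and 299 bp. No background of summit distances was taken. Base composition differed between these IDR summits. In the 201 bases the GC content was 56.7% for E(spl)mbeta-HLH, 31.3% for E(spl)m3-HLH and 24.9% for E(spl)m7-HLH, against a median of 41.8% over all IDR summits.

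Other genes of the complex also had IDR summits. Of the 6, 4 were the nearest gene of an IDR summit in their window. The median rank of the strongest summit was 2334 for these 4, against 3998 for the 4 bHLH genes. E(spl)malpha-BFM, E(spl)m2-BFM and gro (rank 2505) stood above the highest bHLH gene, E(spl)mbeta-HLH (rank 2791), and Kaz-m1 stood below it. The strongest was at E(spl)malpha-BFM, a Bearded-family gene, at 26009094 and rank 1736, with ratios of 4.30, 5.28 and 5.28 in replicates 1, 2 and 3. This was above every value of the bHLH genes in replicates 2 and 3 and just below that of E(spl)mbeta-HLH in replicate 1 (4.36). E(spl)m2-BFM had a summit 235 bp upstream of its TSS at rank 2163, and Kaz-m1, which encodes a predicted protease inhibitor, had 1 at rank 4977. E(spl)m4-BFM and E(spl)m6-BFM had none. Both Bearded-family and bHLH genes of the complex were thus found with and without IDR summits.

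Outside the complex, the related and connected genes had varied counts, each by nearest gene in the window, against the 28.2% of all genes given above. Of the other 5 Hairy-related genes, 2 had an IDR summit, the pair-rule gene h (rank 1293) and the circadian repressor cwo (rank 1738), while dpn, Hey and Sidpn had none. Of 18 Notch signalling genes, 12 had 1. The highest ranks there were those of H (60), which encodes the co-repressor of Su(H), mib1 (91), a ubiquitin ligase that acts on Notch ligands, and mam (594), which encodes the coactivator of the Notch complex. The receptor gene N had rank 3031 and the ligand gene Dl rank 6928, and Su(H) itself had no IDR summit. None of the 7 proneural genes (ac, sc, l(1)sc, ase, ato, amos and cato), which E(spl) proteins are known to repress, had an IDR summit in the window. None of the 4 Bearded-complex genes found in the annotation (Brd, Tom, Ocho and BobA) had 1 either. These proneural and Bearded-complex genes, all but ase, are 500 to 1500 bp long. The share for genes of that length was 30.4% with an IDR summit in the window and 13.9% by nearest gene. Several Notch signalling genes, such as kuz, mam and N, are far longer, and no count was adjusted for length.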

How the data were processed

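Peak lists were deposited for 3 biological replicates, for the pooled replicates and after IDR thresholding. Per the file headers, the lists are on the dm6 assembly and were made with a control alignment (not analysed here). Of the read mapping, the calling of peaks and the IDR cutoff, no tool or setting was given in the sources used here. The deposited signal value of each peak is the authors' own, and the deposited −log10 q value was used to describe weak peaks. Signal values were divided by the median of their list. Sequencing depth is unknown.

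Summits were placed 1-based. Genes came from Ensembl release 115 (BDGP6.54), in dm6 coordinates, on arms 2L, 2R, 3L, 3R, 4 and X. Summits of different lists were matched within 100 bp. Words were searched on both strands; 1 convergent pair and the sequence around it are not reported here. The genes and lists were chosen with earlier results of these data known, and no test was made; counts stand beside the share of all genes. Named genes were the members, the listed genes and the neighbours by rank. Of 42 listed genes, 40 were found, 3 under another symbol (hry, Delta and Nct). Procedures were tested on simulated data. The work used pandas 2.3.3 and numpy 2.4.6 under Python 3.11.15, with figures from matplotlib 3.10.9. Replicates came from separate biosamples per the labels.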

Additional observations from a re-analysis of the deposited data

How the results depend on the processing

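With no margin, 0 bHLH genes and 0 IDR summits were counted. With 1000 bp, 4 genes and 5 summits were counted, and the summit of E(spl)mgamma-HLH was lost; with 5000 bp, 6 genes and 12 summits. The whole pooled list gave 22 summits in the windows. With the top peaks of each replicate in place of the IDR list, 5 genes were counted each time. Relative to the median of the top peaks of each list, the mean ratio of E(spl)mbeta-HLH was 1.53, and as a rank percentile its mean was 9.46% of the list from the top. Leaving out each replicate in turn moved that ratio between 3.63 and 4.08. The IDR list was made from all 3 replicates and could not be remade without one, so its counts have no such check. By the TSSs of all annotated genes, 3 bHLH genes were the nearest gene of a summit, and by those of the 7 alone, 5. Depth limits what an absent summit can show, since it is unknown, the pooled and replicate lists end at 30000 peaks each, and the IDR list was thresholded. No paired analysis was possible because the series has a single group.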
